A study of Mus musculus with 47 samples.

Results

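1700013H16Rik and Xlr3a are 2 X-linked genes of the Xlr family, and they were followed here in 47 single induced pluripotent stem cells (iPSCs) as 2 of the 13947 genes of an allele-resolved count matrix, 422 of which lie on the X. They were chosen by how many cells had a count of them: both were read in most cells that transcribe both X chromosomes and in almost none of the cells with a single X. This difference between the classes of cells is therefore a description and was not tested. The cells were grown from fibroblasts of female embryos (MEFs) of a Mus mother, whose X carries an eGFP transgene, and a Cast father. They were reprogrammed with lentiviral Oct4, Sox2, Klf4 and c-Myc, induced by doxycycline, in medium that held LIF and ascorbic acid. The paper names ascorbic acid for the medium of iPSCs, but also describes picked iPSC colonies passaged without doxycycline and ascorbic acid. Which of these holds for this plate is not given. All of the cells were labelled iPSCs and came from 1 plate, with no culture named, so that cells rather than cultures are counted below. The Mus X is thus of maternal and the Cast X of paternal origin. In the starting fibroblasts it was the Mus X that was inactive, as described for the study.

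The class of each cell came from the deposited column names: 23 cells read from both X chromosomes (X-Mus X-Cast, called biallelic cells below), 15 read almost wholly from the Cast X (X-Cast O-Mus, called Cast-X cells) and 9 read almost wholly from the Mus X (X-Mus O-Cast, called Mus-X cells). The mean Mus share over the other X-linked genes gave the same class in 47 of 47 cells when limits of 0.15 and 0.85 were applied. X-linked counts of the other parent were present at a low level, at 0 to 1.25% in Cast-X cells and 0.823 to 2.41% in Mus-X cells. The study took the X to be lost where genes that escape X inactivation were no longer read from both alleles. Total allelic counts ranged from 130816 to 198307 in biallelic, from 112335 to 216451 in Cast-X and from 71682 to 212232 in Mus-X cells. Of 13 pluripotency markers, 12 had counts in over 50% of the cells. Of 8 fibroblast markers measured, 5 were at 0, and their summed level was at most 1.92 per 10000 counts in any cell.

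The Xlr (X-linked lymphocyte-regulated) genes are a rodent family that has multiplied on the X chromosome and is related to Sycp3, a protein of the synaptonemal complex, which holds paired chromosomes together in meiosis. Several members are read mainly in germ cells, and Xlr3b, Xlr4b and Xlr4c are known for expression from the maternal X in the brain. Genes of the germ line are commonly kept silent in somatic cells by DNA methylation of CpG sites at their promoters. 1700013H16Rik is also listed in RefSeq under the names Slx2 and Xlr6.

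On mm10, 1700013H16Rik (ENSMUSG00000054727.2) lies at chrX:53742901-53757831 and Xlr3a (ENSMUSG00000057836.12) at chrX:73086293-73097095, both protein-coding and on the minus strand. Since the CpG sites of a promoter are where this methylation acts, the 250 bases just upstream of each RefSeq start (GRCm38.p6) are shown, 5′ to 3′ on the minus strand, with CpG sites in capitals. They lie at chrX:53757832-53758081 and chrX:73097096-73097345.

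1700013H16Rik: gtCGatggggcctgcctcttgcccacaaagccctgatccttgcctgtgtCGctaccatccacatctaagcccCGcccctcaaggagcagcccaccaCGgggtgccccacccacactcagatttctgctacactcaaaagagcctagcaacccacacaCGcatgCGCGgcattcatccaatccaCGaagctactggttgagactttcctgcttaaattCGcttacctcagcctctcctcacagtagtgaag

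Xlr3a: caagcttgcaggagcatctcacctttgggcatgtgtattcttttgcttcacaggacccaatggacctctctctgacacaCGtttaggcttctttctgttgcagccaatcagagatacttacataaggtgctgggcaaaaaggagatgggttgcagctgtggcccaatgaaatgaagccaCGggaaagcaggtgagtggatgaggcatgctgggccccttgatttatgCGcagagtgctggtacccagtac

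The upstream stretch of 1700013H16Rik held 9 CpG sites and 56.4% G and C, and that of Xlr3a held 3 CpG sites and 50.8% G and C. Over the upstream stretches of 32851 RefSeq promoters the median was 6 CpG sites, so that one gene stood above and the other below the median. Neither stretch held the E-box letters CACGTG, present in 6.02% of all promoters, or the E2F-type letters GCGGGA, present in 16.9%, on either strand. DNA methylation itself was not analysed here.

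1700013H16Rik was read in 19 of 23 biallelic cells (82.6%, 95% exact binomial interval 61.2 to 95.05%). These cells held 1434 allelic counts of the gene, with a lowest value of 0, a median of 21 and a highest value of 345 counts per cell. The level was 3.71 ± 5.51 per 10000 counts (mean ± SD, n = 23 cells), an SD above the mean. In Cast-X cells the gene was read in 1 of 15 cells, with 49 counts in well D06 and 0 in the other 14. In Mus-X cells 0 of 9 had a count, which allows a share of cells of up to 33.3% when 3 cells of 9 are taken as the limit for a count of 0. Relative to biallelic cells the mean level was 19.17-fold lower in Cast-X and at least 162-fold lower in Mus-X cells, the latter with the class set to 3 counts in all as its floor. Intervals and floors cover counting error only, and those of allele shares treat counts as independent, although 1 read over several SNPs can count more than once, so that they are too narrow.

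Xlr3a had counts in 21 of 23 biallelic cells (91.3%, 72.0 to 98.9%), 412 counts in all, with 0, 19 and 50 as the lowest, median and highest values. The level was 1.09 ± 0.803 per 10000 (SD, n = 23 cells). The median level was 1.24 per 10000 for Xlr3a and 1.30 for 1700013H16Rik, and counts of different genes also depend on their SNPs. In Cast-X cells 1 of 15 had counts, again well D06, with 20. In Mus-X cells 2 of 9 had counts, 4 in well D02 and 3 in well C06, and the other 7 had 0. The mean level was 13.8-fold lower in Cast-X and 21.3-fold lower in Mus-X cells. Without D06 no Cast-X cell had a count of either gene, and the means of 1700013H16Rik and Xlr3a there were at least 279-fold and at least 82.1-fold lower, with the same floor. As D06 held every Cast-X count, these folds only set the floor against the biallelic mean. Without D02 Xlr3a was 52.1-fold lower in Mus-X cells, with 3 counts left. Leaving out the single-X cell with most counts could only raise these folds, so that they add no support. Thinning each cell to 70000 counts left an expected 81.8% of biallelic cells with 1700013H16Rik and 88.1% with Xlr3a. The plot of counts by allele shows every cell.

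**Figure D1:**
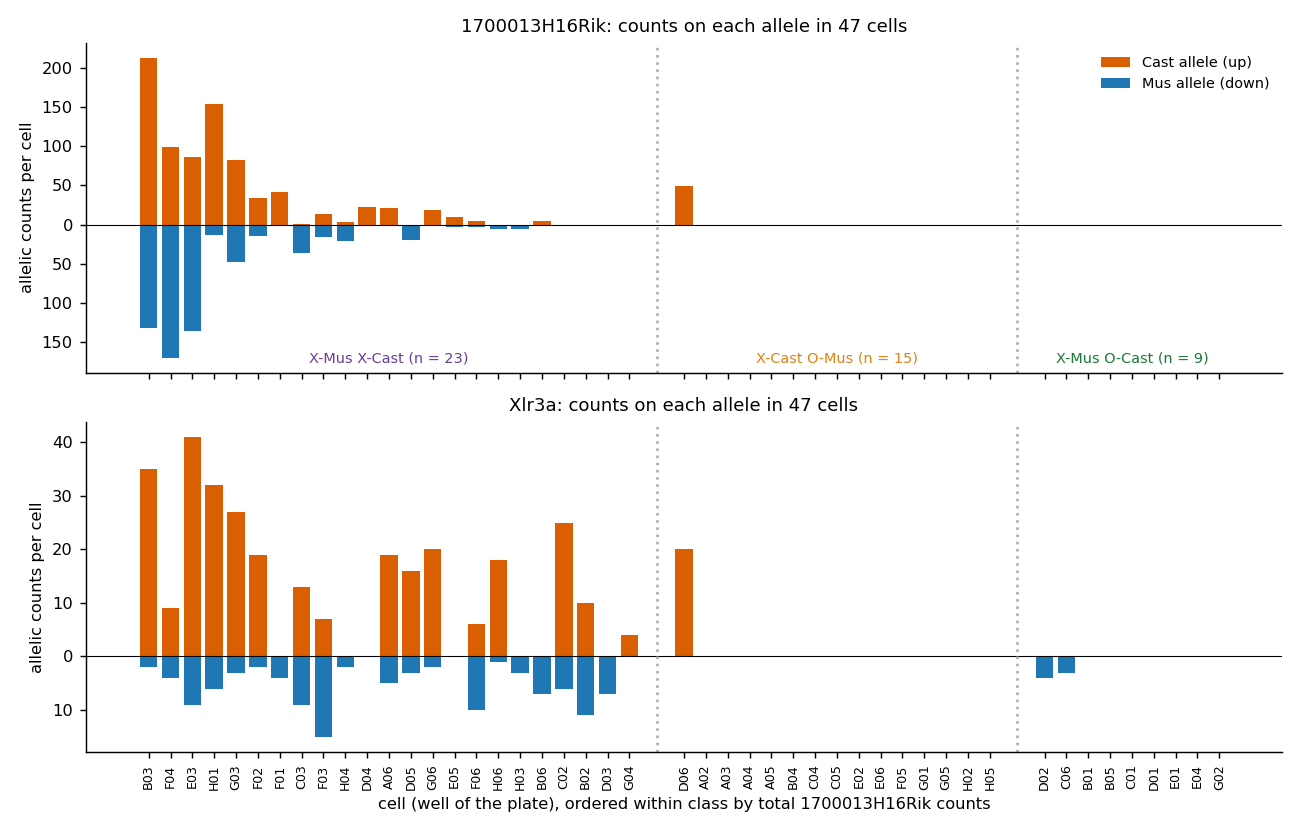
Allelic counts (y axis) of 1700013H16Rik (top) and Xlr3a (bottom) in each of 47 cells (x axis, wells), with Cast counts drawn upward, Mus counts downward and dotted lines between the 3 classes. Of the cells with a single X, 1 shows 1700013H16Rik and 3 show Xlr3a.

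Among the 383 X-linked genes with any count, 9 (2.35%) were read in at least 50% of the biallelic cells and at most 25% of each single-X class, and this count contains the chosen genes. The other 7 were Xlr5c, Usp26, 1810030O07Rik, Amer1, Ccdc22, Efhc2 and Tsx. On the autosomes 23 of 11792 genes with a count (0.195%) had the same pattern, among them the meiotic genes Tex15 and Sycp2l and the imprinted genes Peg10 and Peg12. Ranked by the share of biallelic cells minus the share of single-X cells with a count, Xlr3a (78.8 percentage points) and 1700013H16Rik (78.4 points) were followed just outside by Usp26, a testis-expressed deubiquitinase (65.8 points, 18 and 3 cells), and by Xlr5c (65.4 points, 16 cells and 1 cell). Next came Apoo, a mitochondrial protein gene (62.3 points), read in 22 biallelic cells, 0 Cast-X cells and 8 of 9 Mus-X cells.

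In biallelic cells 1700013H16Rik was read from both X chromosomes. Pooled over cells, 809 counts were Cast and 625 were Mus, a Mus share of 43.6% (40.998 to 46.2%). The pool hides a spread between cells: 11 cells had counts from both alleles, 5 from the Cast allele only, 3 from the Mus allele only and 4 from neither. Among the 15 cells with at least 10 counts of the gene, 10 showed both alleles, 4 only Cast and 1 only Mus, and the Mus share ran from 0 to 100% with a median of 36.6%. Well F01 had 42 Cast and 0 Mus counts, well D05 had 0 Cast and 20 Mus counts, and the cell with most counts, well B03, had 213 Cast and 132 Mus counts. Cells with a single allele were thus found on either side, and none of them had more than 42 counts.

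Xlr3a differed in its allele pattern. All 15 cells with at least 10 counts carried both alleles, and the Mus share ranged from 5.26 to 68.2% around a median of 18.0%. The pooled share was 26.9% (22.7 to 31.5%), from 301 Cast and 111 Mus counts. Counts from the Mus allele were found in more cells than counts from the Cast allele (20 against 16), while the Cast count was the higher one in 13 cells and the Mus count in 8. Of the 15 cells 12 lay below 50%. Well B03 had 35 Cast and 2 Mus counts, whereas well F03 had 7 Cast and 15 Mus counts. For comparison, the Mus share of all X-linked counts lay between 46.9 and 58.5% in these 23 cells, with a median of 53.6%. Of 65 X-linked genes with a mean count within 2-fold of that of Xlr3a, 3 had a lower pooled Mus share, and the middle 80% of these genes ran from 40.6 to 64.6%. The plot of Mus shares shows the 3 distributions.

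**Figure D2:**
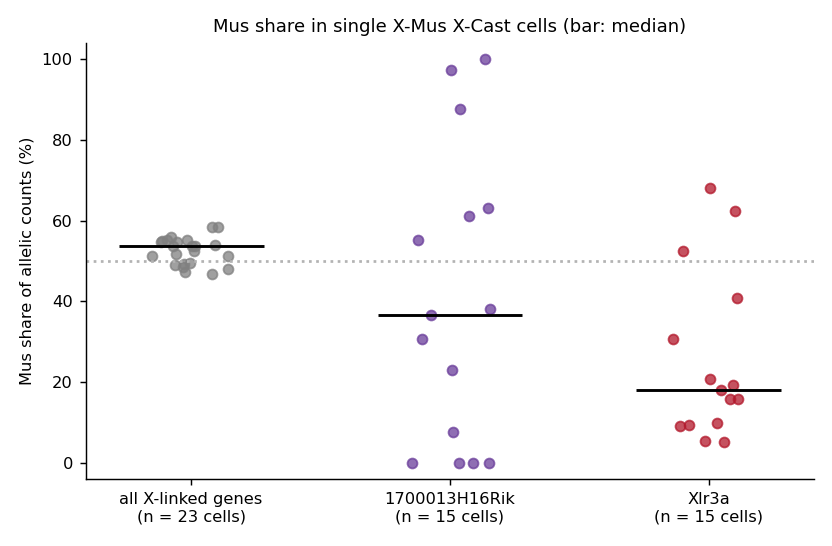
Mus share of allelic counts in percent (y axis) in single biallelic cells for all X-linked genes together, 1700013H16Rik and Xlr3a (x axis), with 1 point per cell and a bar at the median. Both genes are given for the 15 cells with at least 10 counts, and Xlr3a sits mostly below 50%.

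For 1700013H16Rik the spread between cells was wide for its level. Of 19 X-linked genes with a mean count within 2-fold, 1 had a lower share of cells with both alleles among the cells with a count (57.9% for 1700013H16Rik, median 100% for the others). Likewise 1 had a higher coefficient of variation of the level over cells (1.49 for 1700013H16Rik, median 0.460). For Xlr3a, 19 of the 65 genes of like level had a lower share of cells with both alleles than its 71.4%.

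Xlr3a shares much of its sequence with its relatives, which limits what its counts can tell apart. Of 1596 windows of 50 bases, the read length, along its longest annotated coding transcript, 1144 (71.7%) were also present in a transcript of another gene, 56.0% in Xlr3b and 38.2% in Xlr3c. None of 1175 windows of 1700013H16Rik was shared with another gene. The study's methods name uniquely aligned reads for a table of gene counts. Whether this holds for the allelic counts, and how many copies the Cast genome holds, is not given in the sources used here. Xlr3a values are therefore uncertain between copies, and its allele share may include them. The part of shared copies in that share was not tested.

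Both genes were read in the same cell about as often as their separate frequencies give. Of 23 biallelic cells, 17 had counts of both, 2 of 1700013H16Rik only (wells E05 and D04), 4 of Xlr3a only (wells B02, G04, D03 and C02) and 0 of neither. With at least 10 counts of a gene required, the numbers became 11, 4, 4 and 4. The product of the separate shares of cells gives 17.3 cells with both, and 9.78 with at least 10 counts. Taking the alleles apart, 9 cells had counts from all 4 alleles, 5 from 3, 6 from 2 and 3 from 1. Well G03 is an example of all 4, with 83 Cast and 48 Mus counts of 1700013H16Rik and 27 Cast and 3 Mus counts of Xlr3a. Well H03 held Mus counts alone, 6 and 3.

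Within biallelic cells the levels of both genes rose together only in part (Spearman's rho 0.38, n = 23 cells). Over all 47 cells rho was 0.72, a value to which the classes that chose the genes contribute. Between alleles, the Cast and Mus counts of 1700013H16Rik had a rho of 0.44 and those of Xlr3a 0.10. Cast counts of both genes had a rho of 0.42, and Mus counts 0.03. Across chromosomes, Mus 1700013H16Rik with Cast Xlr3a gave 0.45 and Cast 1700013H16Rik with Mus Xlr3a gave -0.06, so that a high and a low value occurred both within and between chromosomes. The mean log2 level of both genes had a rho of 0.03 with total counts, 0.20 with the number of genes read, 0.25 with Xist and -0.08 with the X-linked Mus share. These points share their library and plate, and the correlations are given as descriptions.

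**Figure D3:**
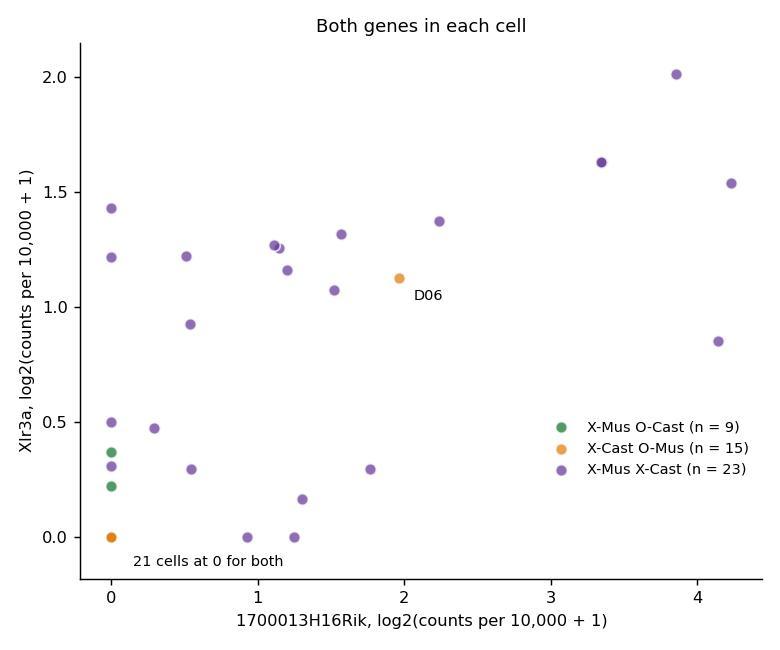
Level of Xlr3a (y axis) against 1700013H16Rik (x axis), both as log2 of counts per 10000 plus 1, in each of 47 cells coloured by class. Cells with both genes are biallelic, except D06, and 21 cells, all with a single X, lie at 0 for both.

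The exception, D06, was the single Cast-X cell with counts of either gene, and it had both. All of its counts of both genes were Cast. At 2.90 per 10000 its 1700013H16Rik level was above that of 17 of 23 biallelic cells, and at 1.18 its Xlr3a level was above that of 11. Its Mus share over X-linked genes was 0.973% (18 of 1849 counts), which 2 other Cast-X cells exceeded. Of the 12 other cells in its plate row or column, 8 were biallelic, and the most Cast counts any of the 12 had was 23 for 1700013H16Rik and 20 for Xlr3a. A part of neighbouring wells in its counts was not tested. D06 also held 4 Cast counts of Xlr3e-ps, and 0 counts of Xlr5c, Sycp1 and Dazl.

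Of the other Xlr and Sycp3 relatives, 6 were in the table, and none reached a mean of 5 counts per cell, the minimum for a fold. Xlr5c came closest. It was read in 16 of 23 biallelic cells with 218 counts, in 0 of 15 Cast-X cells, which allows a share of up to 20.0% by the same limit of 3 cells, and in 1 of 9 Mus-X cells with 3 counts. Its pooled Mus share in biallelic cells was 80.3% (74.4 to 85.3%), from 43 Cast and 175 Mus counts, opposite in side to that of Xlr3a 185801 bases away. Over biallelic cells its level had a rho of 0.55 with 1700013H16Rik and 0.63 with Xlr3a, and by allele its rho with 1700013H16Rik was 0.64 for Mus and 0.27 for Cast counts, and with Xlr3a 0.30 for Mus and 0.58 for Cast counts. In well B03 it had 5 Cast and 45 Mus counts, where Xlr3a had 35 Cast and 2 Mus counts. Its annotation overlaps that of Xlr5a, so that counts may belong to either.

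The rest were sparse. Xlr3c had 25 counts in 6 biallelic cells, all Mus, and 0 elsewhere. Xlr3e-ps, a pseudogene, had 29 counts in 6 biallelic cells. 3830403N18Rik had 21 counts in 3 biallelic cells and 0 elsewhere, and Xlr3b had 8 in biallelic and 3 in Mus-X cells. Sycp3 itself, on chromosome 10, went differently, with 30, 27 and 20 counts in 4, 5 and 4 cells of biallelic, Cast-X and Mus-X. Beyond Xlr5c, the low counts of the family leave a difference between classes undetectable at this depth.

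Other genes within 500 kb did not all share the pattern. Next to 1700013H16Rik, 4930502E18Rik, 4460 bases away, had 27 counts in 5 biallelic cells and 0 in single-X cells, Zfp36l3 and AW822252 had none in any cell, and Rtl8b had counts in 5, 2 and 0 cells. Fam122b had counts in 8, 1 and 3 cells. Near Xlr3a, the sterol synthesis gene Nsdhl was read in 19 of 23, 11 of 15 and 5 of 9 cells, Pnma5 in 15, 5 and 4, and Haus7, a subunit of the spindle complex augmin, in 23, 8 and 7. F8a had counts in 4, 1 and 0 cells, Zfp275 in 3, 0 and 0, Atp2b3 in 4, 1 and 0, Zfp185 in 1, 0 and 0, and Bgn in none. Over biallelic cells the rho with the mean level of both genes was 0.25 for Pnma5, -0.31 for Nsdhl and -0.09 for Haus7, the neighbours of Xlr3a past 5 counts per cell.

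To see which autosomal genes follow the 2 genes from cell to cell, the mean of their log2 levels was correlated with each of the 4033 autosomal genes that passed a minimum of 5 counts per cell on average. Of these, 4031 varied in biallelic cells. The values centred on 0.00, and the middle 98% lay between -0.49 and 0.48. The highest was Sycp1, a structural protein of the synaptonemal complex (rho 0.72, n = 23 cells). It was read in 14 of 23 biallelic cells with 223 counts, in 5 of 15 Cast-X cells with 21 and in 1 of 9 Mus-X cells with 15. Its rho was 0.73 with 1700013H16Rik alone and 0.37 with Xlr3a alone. Its mean of 5.51 counts per cell is low, and low counts make such values unsteady.

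After Sycp1 came Oat, ornithine aminotransferase of the mitochondrion (0.69), Fgfr1op, a centrosomal protein gene (0.65), the inositol phosphatase Inpp5k (0.62), Odf2, of centrioles and sperm tails (0.61), the Polycomb ring finger gene Pcgf3 (0.61), the adaptor subunit Ap5m1 (0.61), Trim59 (0.60), the glycosyltransferase B3gnt2 (0.60) and the chaperone Dnajc10 (0.59). Lowest were the cargo receptor Lman2 (-0.70), the phosphatase subunit Ppp2r2d (-0.68), Zfp870 (-0.62), the glucosidase subunit Ganab (-0.60) and the replication factor subunit Rfc4 (-0.60). As many as 8 genes were at or above 0.60 before rounding, where B3gnt2 had 0.596. The choice of gene matters: only 3 of the 10 highest were also among the 10 highest for 1700013H16Rik alone, and 1 for Xlr3a alone, where Tbc1d20 led (0.74).

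**Figure D4:**
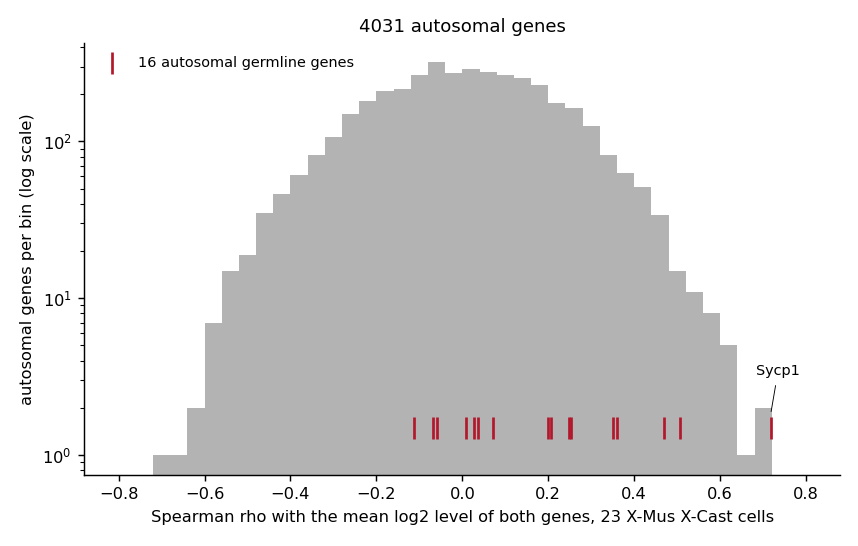
Number of autosomal genes per bin (y axis, log scale) by their Spearman rho with the mean log2 level of 1700013H16Rik and Xlr3a over 23 biallelic cells (x axis), with red ticks for 16 germline genes. The values centre on 0.00 and Sycp1 has the highest, 0.72.

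Of the 10 autosomal genes with the highest values in biallelic cells, 4 had a lower mean level in Cast-X and 4 in Mus-X cells, against 47.4 and 47.6% of all autosomal genes with a value. Sycp1 had log2 differences of -2.88 and -2.92, but it passed the minimum of 5 counts only through the biallelic cells (9.70 counts per cell, against 1.40 in Cast-X and 1.67 in Mus-X cells), so that it had to differ. Odf2 had values of 0.95 and 0.69. Over all 47 cells other genes led, with the oocyte and pluripotent cell gene Ooep (0.62), the ribosomal protein gene Rpl10l (0.62), Arpp19 (0.60), the pluripotency factor Nanog (0.60), Serpinb6c (0.59), Dync1li1 (0.58), Tcl1 (0.57), Sohlh2 (0.56), Gsta3 (0.55) and Eif2b5 (0.54). All of these had lower means in both single-X classes. Within biallelic cells their rho ran from -0.17 to 0.35, so that their rank over 47 cells followed the classes more than the cells within a class.

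Among X-linked genes past the same minimum of 5 counts, the highest values within biallelic cells were those of Usp26 (0.49), the translation factor Eif1ax (0.47), Eda2r (0.46), the glycolytic enzyme gene Pgk1 (0.45) and Hcfc1 (0.35). Below the minimum, Xlr5c had 0.70, Xlr3e-ps 0.53 and Xlr3c 0.49. Usp26 had 270 counts in 18 biallelic cells, 2 counts in 1 Cast-X cell, which was D06, and 14 in 2 Mus-X cells. Eif1ax had log2 differences of -1.03 and -1.10 in Cast-X and Mus-X cells, beside medians of -0.83 and -0.79 over 107 X-linked genes.

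The other germline genes of the cells were examined as a list of 44 autosomal genes that are silenced in somatic tissues, 37 of which were in the table and 16 past the minimum of 5 counts. In Cast-X cells 7 of the 16 had a mean level more than 2-fold below that of biallelic cells and 0 more than 2-fold above, where 5.21% of 4033 autosomal genes were lower and 6.97% higher. In Mus-X cells 10 were lower and 0 higher, where 9.27% of autosomal genes were lower and 9.03% higher. The median log2 difference was -0.71 in Cast-X and -1.60 in Mus-X cells, beside 0.03 and 0.04 over all autosomal genes. With cells of 1 plate as the sole unit, these differences carry no test. The list was also drawn up with earlier results of these data known, so that its counts are a description and not independent support. Sycp1, Smc1b and Syce1 averaged below 5 counts over the single-X cells together and passed the minimum only through the biallelic cells. A lower level in single-X cells was thus built into their choice. Smc1b was an exception in Cast-X cells, where it averaged 5.93 counts by itself, against 1.44 in Mus-X cells. Of the 14 genes that averaged 5 counts in Cast-X cells themselves 5 were lower there, and of the 11 that did so in Mus-X cells 5 were lower there, a choice that leaves out genes with few counts in that class. The share of all autosomal genes under these minimums was not computed, so these counts cannot be set against a background. Without the biallelic cell highest in each gene, 6 genes were lower in Cast-X and 10 in Mus-X cells, Tuba3b being the one lost (-0.89), and without well F04 Sycp1 had -2.24 and -2.27. Without D06, the Cast-X cell highest in Tuba3a, this gene had -1.03 there, a step that could only lower the value.

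Dazl, an RNA-binding protein of germ cells, had log2 differences of -2.10 and -4.37 in Cast-X and Mus-X cells. It was read in 17 of 23, 10 of 15 and 3 of 9 cells with 1495, 255 and 31 counts. Sohlh2, a transcription factor of early germ cells, had -1.67 and -2.89. Of the components of the meiotic axis and synapsis, Syce2 had -0.05 and 0.74, Sycp3 was below the minimum with the counts given above, Syce1 had -1.30 and -2.55, Hormad1 -1.50 and -0.76, Hormad2 -0.37 and -1.38, and the meiotic cohesin subunit Smc1b -0.57 and -2.76. Without well H02 Smc1b had -1.44 in Cast-X cells, and without well A04 Dazl had -3.09 there. Without well B04 Fkbp6 had -1.07 and Sycp1 -3.88 in Cast-X cells, and without well D02 Tuba3b had -2.48 in Mus-X cells. The wells left out for these genes, and C01 for Rnf17 below, were each the highest of their class. Leaving such a well out could only lower the value. The testis tubulins Tuba3a (-0.80 and -3.72) and Tuba3b (-1.05 and -1.82) are near copies of each other and may share reads. Rpl10l (-1.29 and -1.21) and Fkbp6 (-0.62 and -2.36), a piRNA pathway chaperone, were lower too. The remaining members were less than 2-fold apart in both classes: Dmc1, the meiotic recombinase, 0.54 and -0.05, Rnf17 0.30 and -0.90 (-1.30 without well C01), Tex19.1 -0.09 and -0.45, and Zfp42 -0.45 and -0.51. Zfp42 and Tex19.1 are also known from pluripotent cells.

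**Figure D5:**
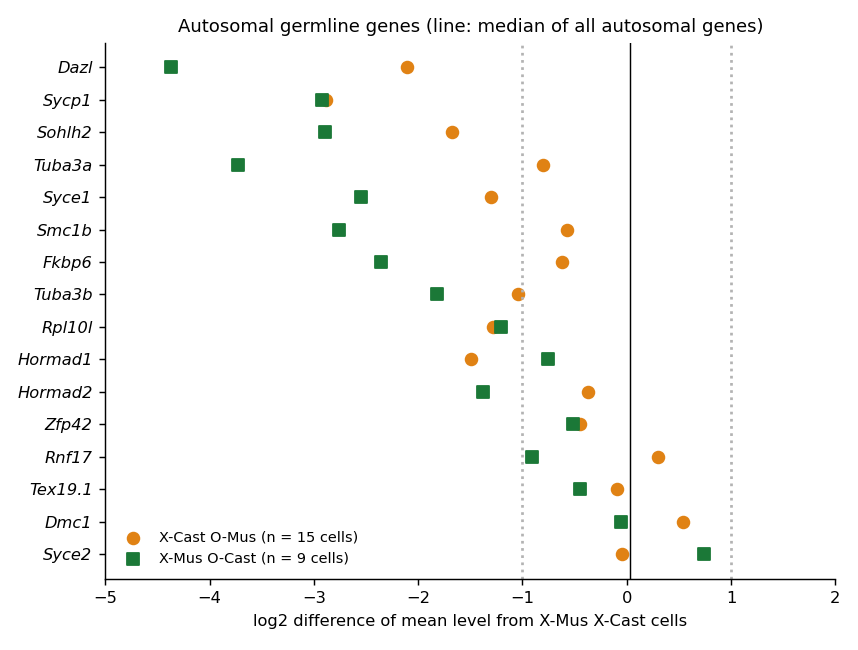
Log2 difference of the mean level from biallelic cells (x axis) for 16 autosomal germline genes (y axis) in Cast-X (circles) and Mus-X cells (squares), with dotted lines at 2-fold and a line at the median of all autosomal genes. Of the 16 genes, 7 circles and 10 squares lie left of the lower dotted line and none right of the upper one.

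The summed level of the 37 genes was 35.9 to 108.9 per 10000 counts in biallelic cells (median 57.5), 20.0 to 54.1 in Cast-X (median 40.9) and 16.04 to 42.3 in Mus-X cells (median 29.7), so that the classes overlapped. Within biallelic cells this sum had a rho of 0.56 with the mean level of 1700013H16Rik and Xlr3a, and the median rho of the 16 genes was 0.20. D06 had a sum of 46.7, above 11 of the other 14 Cast-X cells, with 271 counts of Tuba3a and 111 of Rpl10l. Its sum was within the range of its class.

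A list of 28 X-linked germline and placental genes had 9 in the table and 2 past the minimum, Usp26, described above, and Rhox6, a homeobox gene of the placenta and germ line, with log2 differences of -0.11 and -1.89. The writers and erasers of DNA methylation had 7 of 10 genes past the minimum, none more than 2-fold lower in either class. With 5.21 and 9.27% of autosomal genes lower, as given above, a count of 0 among 7 is near the background. Their median was 0.22 in Cast-X and 0.51 in Mus-X cells. Dnmt3l, a cofactor of de novo methylation, had 0.36 and 1.16 and was the single member more than 2-fold higher, where 9.03% of autosomal genes were higher in Mus-X cells. Dnmt3b had 0.14 and 0.91, and Tet1 had 0.22 and 0.51. Of the factors that hold germline genes silent, 4 of 11 in the table passed the minimum, with medians of 0.19 and 0.03. The histone methyltransferase gene Setdb1 had -0.09 and 1.52, and none of these 4 was more than 2-fold lower, again too few to set against the background. Below the minimum, E2f6 had 55, 8 and 4 counts in biallelic, Cast-X and Mus-X cells, the X-linked Kdm5c 152, 62 and 9, L3mbtl2 24, 8 and 0, Rnf2 81, 21 and 20, Ehmt2 91, 79 and 43, Cbx3 27, 17 and 16, and Ring1 2, 2 and 3. These are sums over 23, 15 and 9 cells. By mean level, Ehmt2 had log2 differences of 0.33 and 0.47, Cbx3 -0.06 and 0.79, and Ring1 0.36 and 1.85. E2f6, Kdm5c, L3mbtl2 and Rnf2 had lower means in both single-X classes. The sum of the methylation genes had a rho of -0.15 with the level of 1700013H16Rik and Xlr3a over biallelic cells.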

How the data were processed

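Single iPSCs had been sorted into a GpC methylase mix, and their mRNA was separated and amplified by the G&T-seq protocol. Nextera XT libraries were sequenced as single-end reads of 50 bases. The authors deposited raw allelic counts per gene, with 1 column for each allele and cell. For their other plates the methods name STAR, an N-masked mm10 genome, SNPsplit and a minimum of 4 SNPs per gene. The labels name STAR 2.5.3a and SAMtools. Mapping of this plate is not described separately. Counts are taken over SNPs, so that 1 read can count more than once: values of 2 (46373) were more frequent than values of 1 (15660).

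Both alleles were summed, divided by the total of the cell and multiplied by 10000. Folds compare class means of genes that average 5 counts per cell or more. Spearman correlations used log2 of the level plus 1. Genes were placed with GENCODE M21 (13945 genes) and RefSeq (1 gene). The code ran in Python 3.11.15 with pandas 2.3.3, numpy 2.4.6, matplotlib 3.10.9 and scipy 1.17.1, and the fold and correlation code was tested on simulated data. Cells of 1 plate are not replicates, and no p-value was computed.

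The 2 genes and the gene lists were chosen with earlier results of these data known. Genes named are the 2 members, their measured relatives, X-linked genes within 500 kb, the 10 highest and 5 lowest autosomal and 5 highest X-linked correlations in biallelic cells, the 10 highest over 47 cells, and the members of each list with the largest folds. Further list members, the X-linked and autosomal genes named for the same pattern of cells, Apoo, Tbc1d20 and the well D06 were named after their values were seen. The 2-cell-like marker list had none of its 9 genes in the table. Of 4 primitive endoderm markers measured, 2 were at 0, and their sum had medians of 0, 0.612 and 0.333 and maxima of 3.27, 10.95 and 10.04 per 10000 in biallelic, Cast-X and Mus-X cells. Their part in the differences between classes was not tested. The 5 germ cell markers in the table summed to medians of 2.17, 1.47 and 0.872 per 10000 in biallelic, Cast-X and Mus-X cells. Dazl led the sum in biallelic cells, with a mean of 3.88 per 10000 against at most 0.422 for each other marker. In Cast-X cells Ddx4, Dmc1 and Sycp3 were higher (log2 0.98, 0.54 and 0.49) and Stra8 was lower (-1.10). In Mus-X cells Sycp3 had 0.98, Dmc1 -0.05, Ddx4 -0.56 and Stra8 -2.38. Of these, Ddx4, Sycp3 and Stra8 were below the minimum of 5 counts. Alternatives covered the minimum of counts, depth, the cells, the measure of correlation and the normalization.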

Additional observations from a re-analysis of the deposited data

Results flagged for a closer look

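In the 9 Mus-X cells 8 of 22 quantities had 1 cell set far apart from the rest by a limit that chance passes in about 1 in 20 groups of continuous values. That rate does not apply to Xlr5c, Xlr3b, Sycp1 and Fkbp6, where 1 cell had counts and the others 0, so that any count would have set it apart. Values are counts per 10000. Xlr5c had 0.419 in well E04 and 0 in the others, and E04 was the shallowest cell. Xlr3b had 0.201 in well G02 and 0 in the others. Among the germline genes, Dazl reached 1.14 in well D01 and Hormad2 4.04 in well D02, where the next cells had 0.278 and 1.12. Sycp1 was at 0.707 in well B05 and Fkbp6 at 1.72 in well E01, with 0 in all other Mus-X cells. In well G02 Syce1 had 1.01 and Sohlh2 1.61, with 0.188 and 0.801 in the next cells. Without that cell the log2 difference from biallelic cells was -5.83 for Dazl, -2.58 for Hormad2, -5.05 for Syce1 and -3.74 for Sohlh2, and no count of Sycp1 or Fkbp6 was left in Mus-X cells.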

How the results depend on the processing

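With at least 10 counts required, the share of biallelic cells became 65.2% for either gene, the cells with both genes fell to 11 and those with all 4 alleles to 0. The median over cells in place of the pool gave Mus shares of 36.6% for 1700013H16Rik and 18.0% for Xlr3a. The correlation of both genes was 0.49 by Pearson's r, 0.72 over 47 cells and 0.50 in cells with both genes, the last chosen after seeing the data. Of the 10 highest autosomal genes, 3 remained by Pearson's r, 6 with a mean of at least 1 count, 1 with at least 20, 0 over 47 cells, 6 without the cell with most 1700013H16Rik, 3 for that gene alone and 1 for Xlr3a alone. Only Odf2 of these 10 genes averaged at least 20 counts, so that no other could remain at that minimum. Sycp1 had a rho of 0.52 over 47 cells and 0.37 for Xlr3a alone. Its rank was 2 by Pearson's r, 3 without the cell with most 1700013H16Rik, 18 over 47 cells and 148 for Xlr3a alone. It stayed at rank 1 with a mean of at least 1 count, without the cell with most Xlr3a and for 1700013H16Rik alone. With a minimum mean of 1 count, 11 of 26 germline genes were lower in Cast-X and 16 in Mus-X cells. The share of all autosomal genes at that minimum was not computed, so these counts have no background to be set against. Without the biallelic cell highest in each gene, chosen after seeing the data, Tex19.1 (0.03) and Syce2 (0.04) in Cast-X and Dmc1 (0.25) in Mus-X cells changed sign. Leaving out D06, E04, Zfp42 or the 3 cells with most 1700013H16Rik, all chosen after seeing the data, gave 6 to 8 lower germline genes in Cast-X and 10 in Mus-X cells. Leaving out the single-X cell highest in each gene, also chosen afterwards, gave 10 and 11. That step can only lower the mean of a single-X class, so that a rise in these counts was built in. No paired analysis was possible because the cells carry no replicate numbers shared between classes.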
